A study of Mus musculus with 6 samples.

Results

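The EGF and FGF signalling genes are the genes through which cells make, receive and damp the signals of the epidermal and fibroblast growth factors. The rule below takes them by gene name and uses no measured value, although the group itself was picked with earlier results of these data known. Every gene of the array's annotation was taken whose symbol names an EGF family ligand, a neuregulin, an ErbB receptor, an FGF, an FGF receptor, a Sprouty or Spred inhibitor, the phosphatases Dusp4 to Dusp6 or a PEA3 transcription factor. This gave 54 genes of the 19937 named on the array, measured by 57 of 21640 probe sets that carry a single gene symbol. Where a gene had more than 1 probe set, which was so for Etv1, Etv5 and Spred2, the one with the highest mean over the arrays represented it. Areg, the ligand amphiregulin, had no probe set with a single symbol and was not analysed here. Fgfr1op2 matched the rule by its name only, is no FGF receptor, and is given apart.

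The samples were primary neurospheres, free-floating balls of dividing neural precursors and their progeny, raised from hippocampal cells of male C57BL/6J mice that were adult (8 to 12 weeks). In 3 samples the medium held 10 µM norepinephrine, the transmitter of noradrenergic neurons, and in the other 3 it held 15 mM KCl, which depolarises excitable cells. Both groups also received EGF and bFGF (the protein of Fgf2) in the medium, and all spheres, which the labels call big neurospheres, were harvested on day 14. The study asked which genes are higher or lower with either treatment. No untreated spheres were analysed here, so each difference is norepinephrine minus KCl and gives no direction against an untreated level. The labels name the samples biological replicates without saying whether they came from separate mice or cultures, so a p-value here stands for the spread among these 6 samples, which may be technical.

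EGF family ligands and neuregulins bind ErbB receptors, which pair up and phosphorylate each other, and FGFs bind FGF receptors together with heparan sulfate. Both kinds of receptor switch on RAS and the kinase cascade that ends in ERK. ERK signalling in turn induces some of its own inhibitors, which include the Sprouty and Spred proteins and the Dusp phosphatases. It also induces the PEA3 transcription factors Etv1, Etv4 and Etv5. RNA of several of these genes is widely used as a readout of the pathway. Neural precursors in neurosphere culture depend on EGF and FGF2 to divide. RNA of the ligand genes is that made by the cells themselves and says nothing of the factors added to the medium.

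Each sample was run on 1 array, and all values below are log2 expression values, in which a difference of 1 is a 2-fold difference. The brightness of a probe set also depends on its probes, so no gene's level is set against that of another. The array of KCl replicate 1 stood apart. Its standard deviation over the named probe sets was 1.38, against 1.62 to 1.78 on the other 5 arrays, with bright probe sets reading low and dim ones high. With all genes put in 3 equal bins by signal, the median difference was 0.13 in the brightest bin, -0.09 in the middle bin and -0.17 in the dimmest bin. Without this array these medians were -0.0049, 0.02 and 0.0060. On 6 arrays norepinephrine gave the higher mean in 68.1%, 32.6% and 12.7% of the genes in these bins. Over all genes it did so in 37.8%. Without scanner files no marker could be called absent. Norepinephrine gave the higher mean in 6 of 11 markers of stem cells and radial glia (median 0.27, and 0.13 without KCl replicate 1). Of these 11, 1, Prom1, had an unadjusted p under 0.05 by limma. Groups did not overlap in 3 that were higher and 1 that was lower, Hes1 at -0.38. Of 9 neuron markers 7 were higher (median 0.11, and 0.28 without that array), with Snap25 and Tubb3 under that p. Their groups did not overlap in 2 that were higher and 1 that was lower, Map2 at -0.33. Of 9 oligodendrocyte lineage markers 5 were higher (0.10 and 0.17), with Gpr17 and Pdgfra under that p and no overlap in 3, all higher. Of 8 microglia and macrophage markers 1 was higher (median -0.25, and 0.02 without that array), and of 10 markers of endothelium, pericytes and meninges 1 was (-0.13 and 0.06). Groups did not overlap in 1 of these 8, which was lower, and in 0 of these 10. Of 9 astrocyte markers, 8 were higher with norepinephrine and S100b was lower, at -0.29. In 7, all higher, the p was under that limit and the groups did not overlap. Over all genes 3.18% were under that p and 9.03% did not overlap. No marker of any list passed after Benjamini-Hochberg adjustment of the limma p-values (lowest 0.774, Gfap). The median of the astrocyte list was 1.04, and 0.50 without KCl replicate 1. The mean level of its genes ran from 9.29 to 9.39 with norepinephrine and from 8.20 to 8.59 with KCl. Their part in the values below was not tested.

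None of the 54 genes passed the test for a difference between the treatments. With limma, adjusted by Benjamini-Hochberg over all 21640 named probe sets, 0 of them had an adjusted p under 0.05, where 0% of all genes did, and the lowest adjusted p among them was 0.939. An unadjusted p under 0.05 was found in 0 of 54 as well, and in 3.18% of all genes. The 3 norepinephrine and 3 KCl values did not overlap in 1 of the 54 genes (1.85%), against 9.03% of all genes, of which 4.44% were higher with norepinephrine and 4.58% higher with KCl. Without KCl replicate 1, 2 of the 54 had an unadjusted p under 0.05 by limma, Erbb4 and Fgf1, where 4.37% of all genes did. The differences were small, with a median size of 0.15 log2 units. In 40 genes they were under 0.25 in either direction, and in 3 genes, Hbegf, Fgf7 and Fgf2, they were over 0.5. In bulk spheres a difference in the share of a cell type cannot be told apart from one in RNA per cell, nor can opposite changes in separate cell types be seen.

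The intervals show what sizes these arrays leave possible. The 95% confidence interval of the difference, not adjusted for the number of genes, reached between 0.40 and 1.05 log2 units to each side of the estimate, with a median of 0.53. It lay within 1 log2 unit of 0, that is within a 2-fold difference, in 47 of the 54 genes. It passed that bound in Hbegf, Ereg, Spry2, Nrg3, Etv5, Fgf7 and Fgf2. A missed threshold does not show that the treatments left these genes alike.

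**Figure D1:**
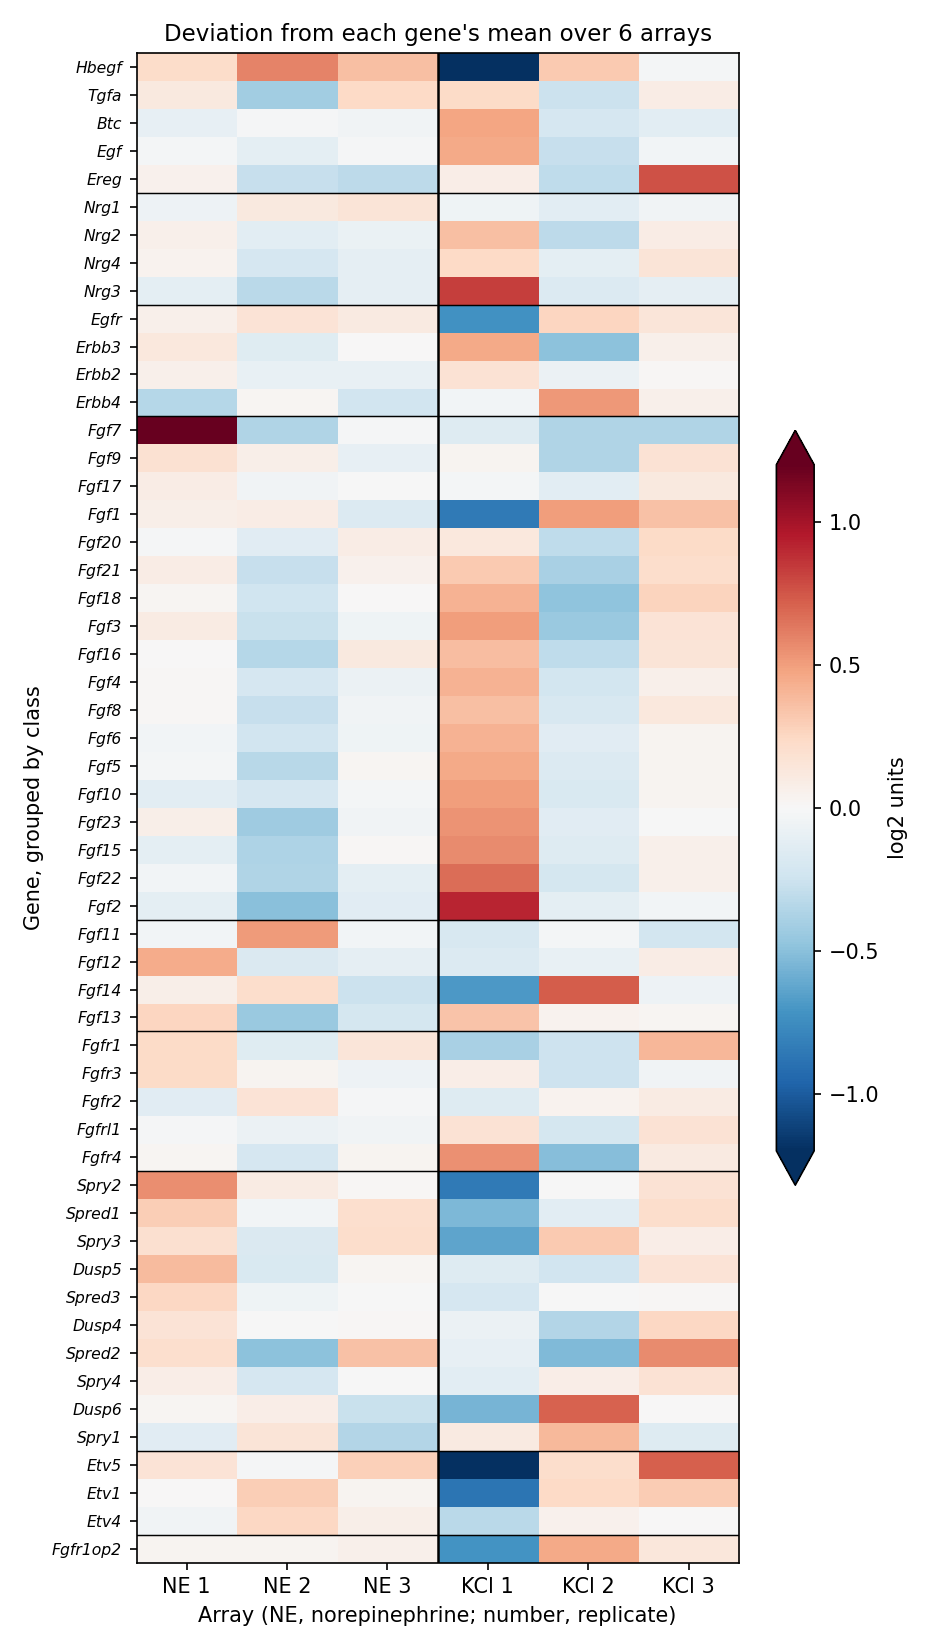
The log2 expression value of each of the 54 genes on each of the 6 arrays, as the deviation from that gene's mean over the arrays (colour, in log2 units; values past the ends of the scale take the end colour), with genes in rows by class and norepinephrine (NE) and KCl arrays in columns. The column of KCl replicate 1 carries the strongest colours, high in most secreted FGF ligands and low in Hbegf, Egfr, Fgf1, Spry2, Etv1 and Etv5.

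KCl replicate 1 gave many of the extreme readings. That array gave the highest of the 6 readings in 22 genes (40.7%, against 51.9% of all genes) and the lowest in 15 (27.8%, against 24.7%). The split followed signal: of the 24 members at or under the median gene level of 7.15, it was highest in 17 and lowest in 1, and of the 30 members above it, highest in 5 and lowest in 14. Over all genes it was highest in 79.8% of those at or under that level and lowest in 45.9% of those above it. The members' differences moved with signal likewise. Members above the median level had a median difference of 0.03, with 18 of 30 higher with norepinephrine. Those at or under it had a median of -0.15, with 5 of 24 higher. Without KCl replicate 1 these medians were -0.0077 and -0.0035, and 19 of the 54 differences changed sign.

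**Figure D2:**
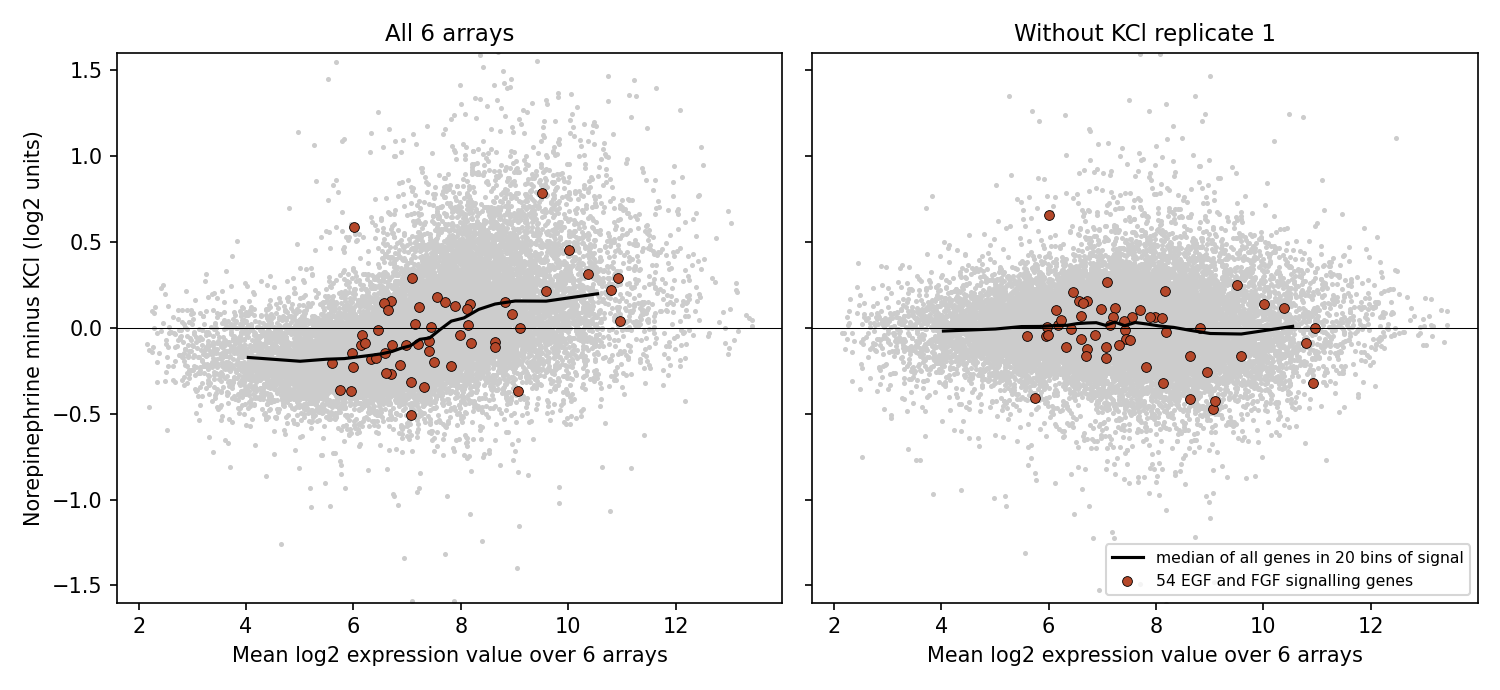
The difference between norepinephrine and KCl (vertical axis, log2 units) against the mean log2 expression value over 6 arrays (horizontal axis) for all genes in grey and the 54 EGF and FGF signalling genes in red, with all arrays (left) and without KCl replicate 1 (right); the black line is the median of all genes in 20 bins of signal, and a few genes lie beyond the vertical axis. On 6 arrays the line climbs from below 0 for dim genes to above 0 for bright ones and most members lie along it, and without KCl replicate 1 the line lies near 0.

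The receptors of the growth factors in the medium came first. Egfr, the receptor of EGF, TGF-alpha and HB-EGF, read 10.86, 10.96 and 10.91 with norepinephrine and 10.07, 11.06 and 10.94 with KCl. The norepinephrine values lay close together and inside the range of the KCl group, in which replicate 1 was the lowest. The difference was 0.22 ± 0.27 (log2 difference ± SE, n = 3 per group; 95% interval -0.40 to 0.84), and -0.09 without KCl replicate 1. On the 5 other arrays Egfr spanned 0.20 log2 units.

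Of the other ErbB receptors, Erbb4, a receptor of neuregulins, is singled out here after its values were seen. It read 8.72, 9.08 and 8.83 with norepinephrine and 9.03, 9.58 and 9.12 with KCl. The groups overlapped only through norepinephrine replicate 2, which lay above KCl replicate 1. The difference was -0.37 ± 0.22 (95% interval -0.86 to 0.13; unadjusted p = 0.128 and adjusted p = 0.939 by limma). It was below 0 on leaving out any array, from -0.48 to -0.20. It was -0.48 without KCl replicate 1, with an unadjusted p of 0.0417 by limma, and -0.51 ± 0.15 after a further quantile normalization, where the groups did not overlap (unadjusted p = 0.00958, adjusted p = 0.886 by limma). Other settings gave larger unadjusted p-values by limma. These were 0.343 without KCl replicate 2, 0.155 without KCl replicate 3, 0.113 to 0.322 without 1 norepinephrine array, and 0.224 after median centring.

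Erbb2, the ErbB receptor that binds no ligand of its own, differed by -0.08 ± 0.18 and read from 7.32 to 7.48 with norepinephrine and from 7.35 to 7.59 with KCl. Erbb3, a neuregulin receptor with little kinase activity, differed by -0.01 ± 0.26. Its readings ran from 6.32 to 6.59 and from 5.97 to 6.92, so the KCl range enclosed the other. The median of the 4 ErbB receptors was -0.05, against -0.07 over all genes.

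The FGF receptors had the class median closest to 0, at 0.01 over 5 genes, with differences from -0.10 to 0.15. Fgfr1, the main receptor of FGF2 in neural precursors, read 9.05, 8.68 and 8.97 with norepinephrine and 8.44, 8.58 and 9.22 with KCl. The ranges overlapped widely, and KCl replicate 3 was the highest of all. The difference was 0.15 ± 0.25 (95% interval -0.41 to 0.72), and -0.0029 without KCl replicate 1.

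Fgfr2 read 7.30, 7.61 and 7.43 with norepinephrine and 7.29, 7.48 and 7.54 with KCl, a difference of 0.01 ± 0.19 (95% interval -0.42 to 0.43). The groups had nearly the same range. Fgfr3, a receptor that is abundant in astrocytes and their precursors, read 8.40, 8.20 and 8.11 with norepinephrine and 8.25, 7.92 and 8.13 with KCl. Its difference was 0.14 ± 0.19 (95% interval -0.30 to 0.57), and the groups overlapped. Fgfr4 differed by -0.10 ± 0.27, with KCl readings from 6.21 to 7.28 around the norepinephrine readings of 6.52 to 6.76. Fgfrl1, a receptor that lacks the kinase domain, differed by -0.09 ± 0.19, and its norepinephrine readings of 8.12 to 8.17 lay inside the KCl range of 7.97 to 8.36.

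**Figure D3:**
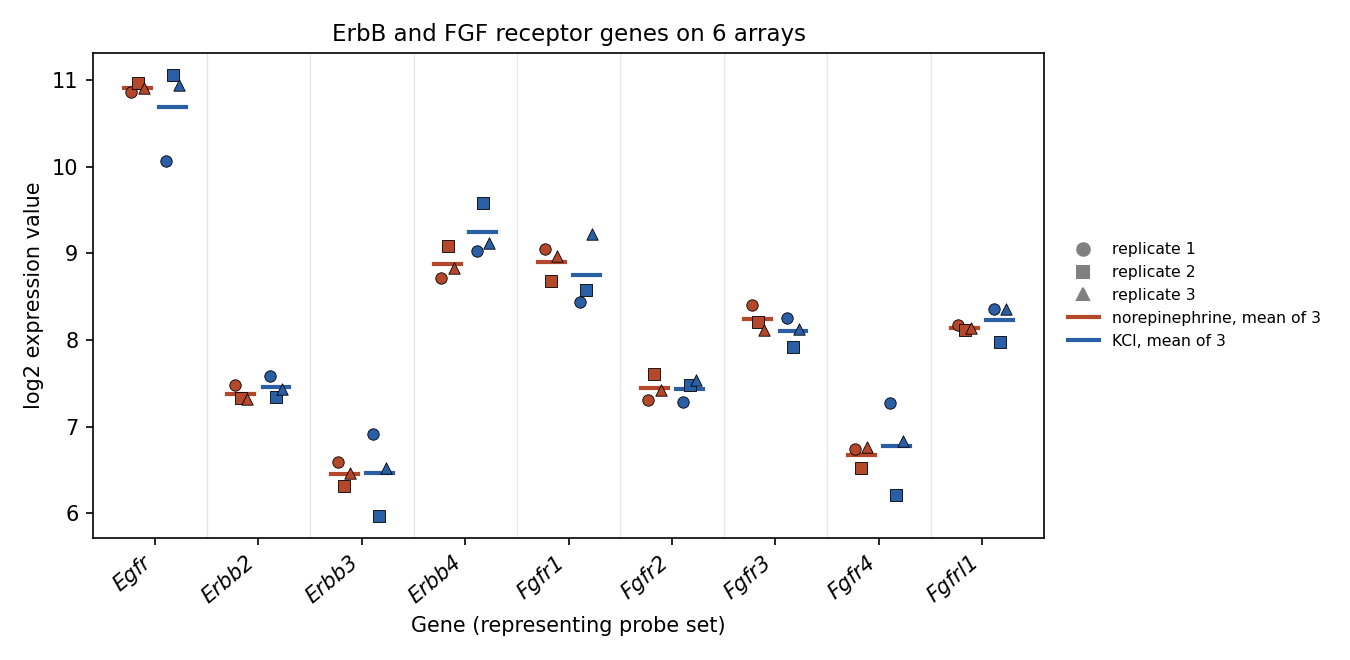
The log2 expression value (vertical axis) of the 4 ErbB and 5 FGF receptor genes (horizontal axis) on each of the 6 arrays, with norepinephrine in red, KCl in blue, symbols for replicate numbers and a bar at each group's mean. The groups overlap in every receptor gene, Egfr reads 10.07 on KCl replicate 1 against 10.86 to 11.06 elsewhere, and Erbb4 shows the least overlap.

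Among the EGF family ligands, Hbegf had the largest difference of the 54 genes. Its product, HB-EGF, is a membrane-bound ligand of EGFR and ErbB4 that is released by cleavage. Hbegf read 9.74, 10.11 and 9.88 with norepinephrine and 8.05, 9.83 and 9.49 with KCl. The groups overlapped, since KCl replicate 2 lay above norepinephrine replicate 1, and KCl replicate 1 was far below the rest. The difference was 0.79 ± 0.41 (95% interval -0.15 to 1.73; unadjusted p = 0.0903, adjusted p = 0.939 by limma), a 1.73-fold value. It was 0.25 without KCl replicate 1 and ran up to 1.14 on leaving out KCl replicate 2, so 1 array set much of its size.

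Tgfa, which encodes TGF-alpha, differed by -0.04 ± 0.24. Btc (betacellulin) and Egf each stood at -0.10 ± 0.22, with KCl replicate 1 as their highest array. Ereg, which encodes epiregulin, differed by -0.36 ± 0.28. It read 5.43 to 5.80 with norepinephrine, and 5.83, 5.44 and 6.52 with KCl, where replicate 3 stood above all others. Without that array the Ereg difference was -0.07. The class median was -0.10 over 5 genes, and 0.10 without KCl replicate 1.

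The neuregulins, ligands of ErbB3 and ErbB4, had a median of -0.14 over 4 genes, of which 1 was higher with norepinephrine. Without KCl replicate 1 the median was 0.0093, with 2 of 4 higher. Nrg1 differed by 0.15 ± 0.18, with readings of 6.52 to 6.73 with norepinephrine and 6.44 to 6.54 with KCl, the tightest KCl range of the class. Nrg2 and Nrg4 stood at -0.09 ± 0.22 and -0.18 ± 0.19. Nrg3 stood at -0.37 ± 0.28. It read 6.79 on KCl replicate 1 against 5.63 to 5.85 on the other 5 arrays, and leaving that array out gave -0.05.

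Of 18 secreted FGF ligands, 15 were higher with KCl, with a median difference of -0.16. Beside it, the dimmest of the 3 bins of all genes (mean value up to 6.57) had -0.17, and the middle bin (6.57 to 7.78) had -0.09. Higher with norepinephrine were 12.7% and 32.6% of the genes in these bins and 37.8% of all genes, against 3 of the 18 ligands. The ligands had mean values from 5.61 to 9.10, and 13 of the 18 lay at or under the median gene level. Only Fgf1 lay in the brightest bin, and the others lay in the dimmest and middle bins. When only the brighter probe sets, those not below the median signal, were fitted, 4 ligands remained. Of these 4, 0 were higher with norepinephrine, and their median was -0.17. Over all probe sets of that fit the median was 0.06, and 59.2% were higher with norepinephrine. The 4 were Fgf8, Fgf18 and Fgf22, with mean values of 7.51, 7.41 and 7.31, in the middle bin, and Fgf1. Without KCl replicate 1 Fgf8, Fgf18, Fgf22 and Fgf1 stood at -0.07, 0.04, -0.10 and -0.43. Whether these 4 ligands depart from other bright probe sets was not tested. Without KCl replicate 1, 10 of the 18 were higher with KCl and the median was -0.02. None of the 18 had an unadjusted p under 0.05 by limma on 6 arrays.

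Fgf2, the gene of the bFGF that was also added to the medium, was the 1 gene of the 54 whose groups did not overlap. It read 6.95, 6.56 and 6.93 with norepinephrine and 7.98, 6.95 and 7.03 with KCl. The highest norepinephrine and the lowest KCl value both round to 6.95, so the groups all but touched, and KCl replicate 1 lay far above the other 5 arrays. The difference was -0.51 ± 0.29 (95% interval -1.18 to 0.16; unadjusted p = 0.12, adjusted p = 0.939 by limma), and -0.18 without KCl replicate 1. It was below 0 on leaving out any array, and at its largest, -0.70, without KCl replicate 2.

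Fgf1, a ligand of all FGF receptors, read 9.17, 9.18 and 8.94 with norepinephrine and 8.25, 9.60 and 9.45 with KCl. KCl replicates 2 and 3 were above, and KCl replicate 1 below, all norepinephrine arrays. The difference was -0.0033 with an SE of 0.34, and without KCl replicate 1 it was -0.43 (unadjusted p = 0.033 by limma). Fgf7, a ligand of an epithelial form of FGFR2, stood at 0.59 ± 0.38. That value came from norepinephrine replicate 1, which read 7.28 while the other 5 arrays read 5.65 to 6.00. Without it the difference was 0.11, and without norepinephrine replicate 2 it was 0.92.

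The remaining ligands above the median gene level were Fgf8, Fgf18, Fgf17 and Fgf22. Fgf8 and Fgf18, related ligands with roles in patterning the brain and skeleton, differed by -0.20 ± 0.21 and -0.14 ± 0.26. Fgf17 differed by 0.02 ± 0.18, and its readings spanned 0.25 log2 units over all 6 arrays, the narrowest of the 54. Fgf22, which acts at synapses, stood at -0.35 ± 0.25, and -0.10 without KCl replicate 1. The other 11 secreted ligands (Fgf3, Fgf4, Fgf5, Fgf6, Fgf9, Fgf10, Fgf15, Fgf16, Fgf20, Fgf21 and Fgf23) ranged from -0.31 for Fgf15, a hormone-like FGF, to 0.10 for Fgf9, and 1 of them was higher with norepinephrine.

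The FGF homologous factors Fgf11 to Fgf14 stay inside the cell, bind voltage-gated sodium channels and do not act as classical FGF receptor ligands. The difference was above 0 in 3 of these 4 genes. Their median was 0.06, and -0.05 without KCl replicate 1. Fgf11 stood at 0.29 ± 0.21, with norepinephrine replicate 2 highest at 7.60, and Fgf12 at 0.11 ± 0.22. Fgf13 stood at -0.27 ± 0.23. Fgf14 differed by 0.02 ± 0.34 and read 7.45, 8.86 and 8.07 with KCl, a spread wide enough to enclose the norepinephrine readings of 7.88 to 8.35.

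The feedback inhibitors had a median difference of 0.12 over 10 genes, and 7 were higher with norepinephrine. Spry1, Dusp6 and Spry4 were lower. Whether the RNA of each of the 10 follows ERK signalling in these spheres was not tested. The brightest of the 3 bins of all genes (mean value from 7.78) had a median of 0.13, and the middle bin (6.57 to 7.78) had -0.09. Of the genes in these bins, 68.1% and 32.6% were higher with norepinephrine. The inhibitors, with mean values from 6.71 to 10.96, lay in both of these bins, and 9 of the 10 above the median gene level. The class median was 0.03 without KCl replicate 1, with 6 of 10 higher. Spry2 had the largest value of the class. It read 10.57, 10.12 and 10.03 with norepinephrine and 9.17, 10.01 and 10.19 with KCl, a difference of 0.45 ± 0.30, and 0.14 without KCl replicate 1.

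Dusp6, a phosphatase that removes phosphate from ERK in the cytoplasm, read 8.66, 8.71 and 8.37 with norepinephrine and 8.08, 9.35 and 8.64 with KCl. The highest and the lowest reading both came from KCl arrays. The difference was -0.11 ± 0.31, and -0.41 without KCl replicate 1 (unadjusted p = 0.106 by limma). Dusp4 and Dusp5, which act on ERK in the nucleus, differed by 0.12 ± 0.21 and 0.15 ± 0.22.

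Of the other Sproutys, which block the path from receptor to ERK, Spry1 stood at -0.22 ± 0.22, Spry3 at 0.15 ± 0.27 and Spry4 at -0.08 ± 0.19. The Spreds, which bring the RAS inhibitor neurofibromin to the membrane, stood at 0.31 ± 0.23 for Spred1, 0.04 ± 0.33 for Spred2 and 0.13 ± 0.19 for Spred3. Spred2 read 11.16, 10.46 and 11.31 with norepinephrine and 10.86, 10.43 and 11.52 with KCl, so replicate 2 was lowest in both groups. Its other probe set gave 0.25 ± 0.34.

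All 3 PEA3 factors, transcription factors induced by FGF and ERK signalling, were higher with norepinephrine on 6 arrays, and their groups overlapped. Etv5 and Etv1 lay in the brightest bin of all genes, where the median was 0.13 and 68.1% were higher with norepinephrine. Etv4 lay in the middle bin, where these values were -0.09 and 32.6%. Etv5 read 11.10, 10.91 and 11.22 with norepinephrine and 9.57, 11.14 and 11.65 with KCl. Its KCl readings held both the lowest and the highest value, and the difference was 0.29 ± 0.46. Etv1 and Etv4 differed by 0.22 ± 0.32 and 0.18 ± 0.20. The median of 0.22 was 0.07 after a further quantile normalization and -0.17 without KCl replicate 1, where Etv5 stood at -0.32, Etv1 at -0.17 and Etv4 at 0.06. The second probe sets of Etv1 and Etv5 gave 0.37 ± 0.57 and -0.03 ± 0.27. Fgfr1op2, the gene matched by name only, differed by 0.08 ± 0.29.

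**Figure D4:**
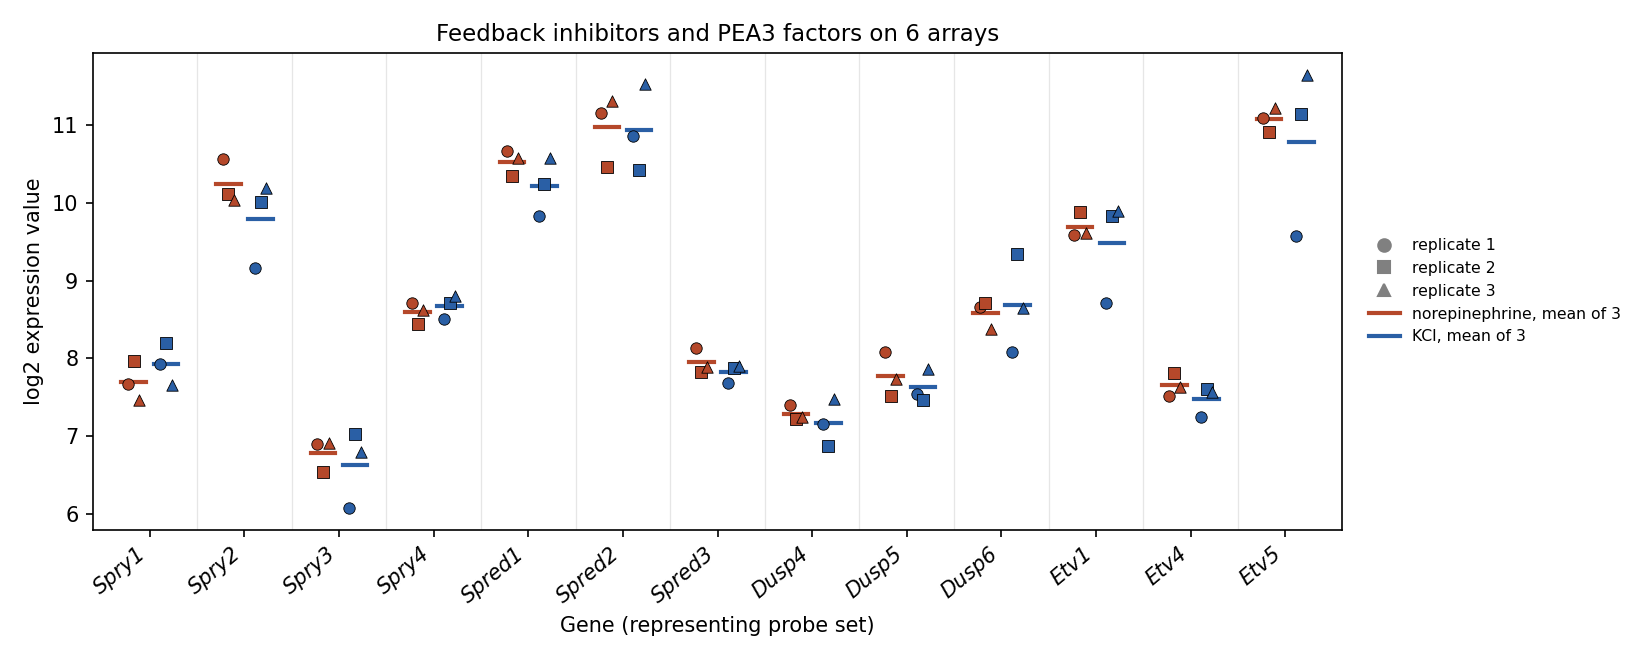
The log2 expression value (vertical axis) of the 10 feedback inhibitor genes and 3 PEA3 factor genes (horizontal axis) on each of the 6 arrays, with norepinephrine in red, KCl in blue, symbols for replicate numbers and a bar at each group's mean. The groups overlap in all 13 genes, and KCl replicate 1 is the lowest reading of Spry2, Spry3, Spred1, Spred3, Dusp6, Etv1, Etv4 and Etv5.

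**Figure D5:**
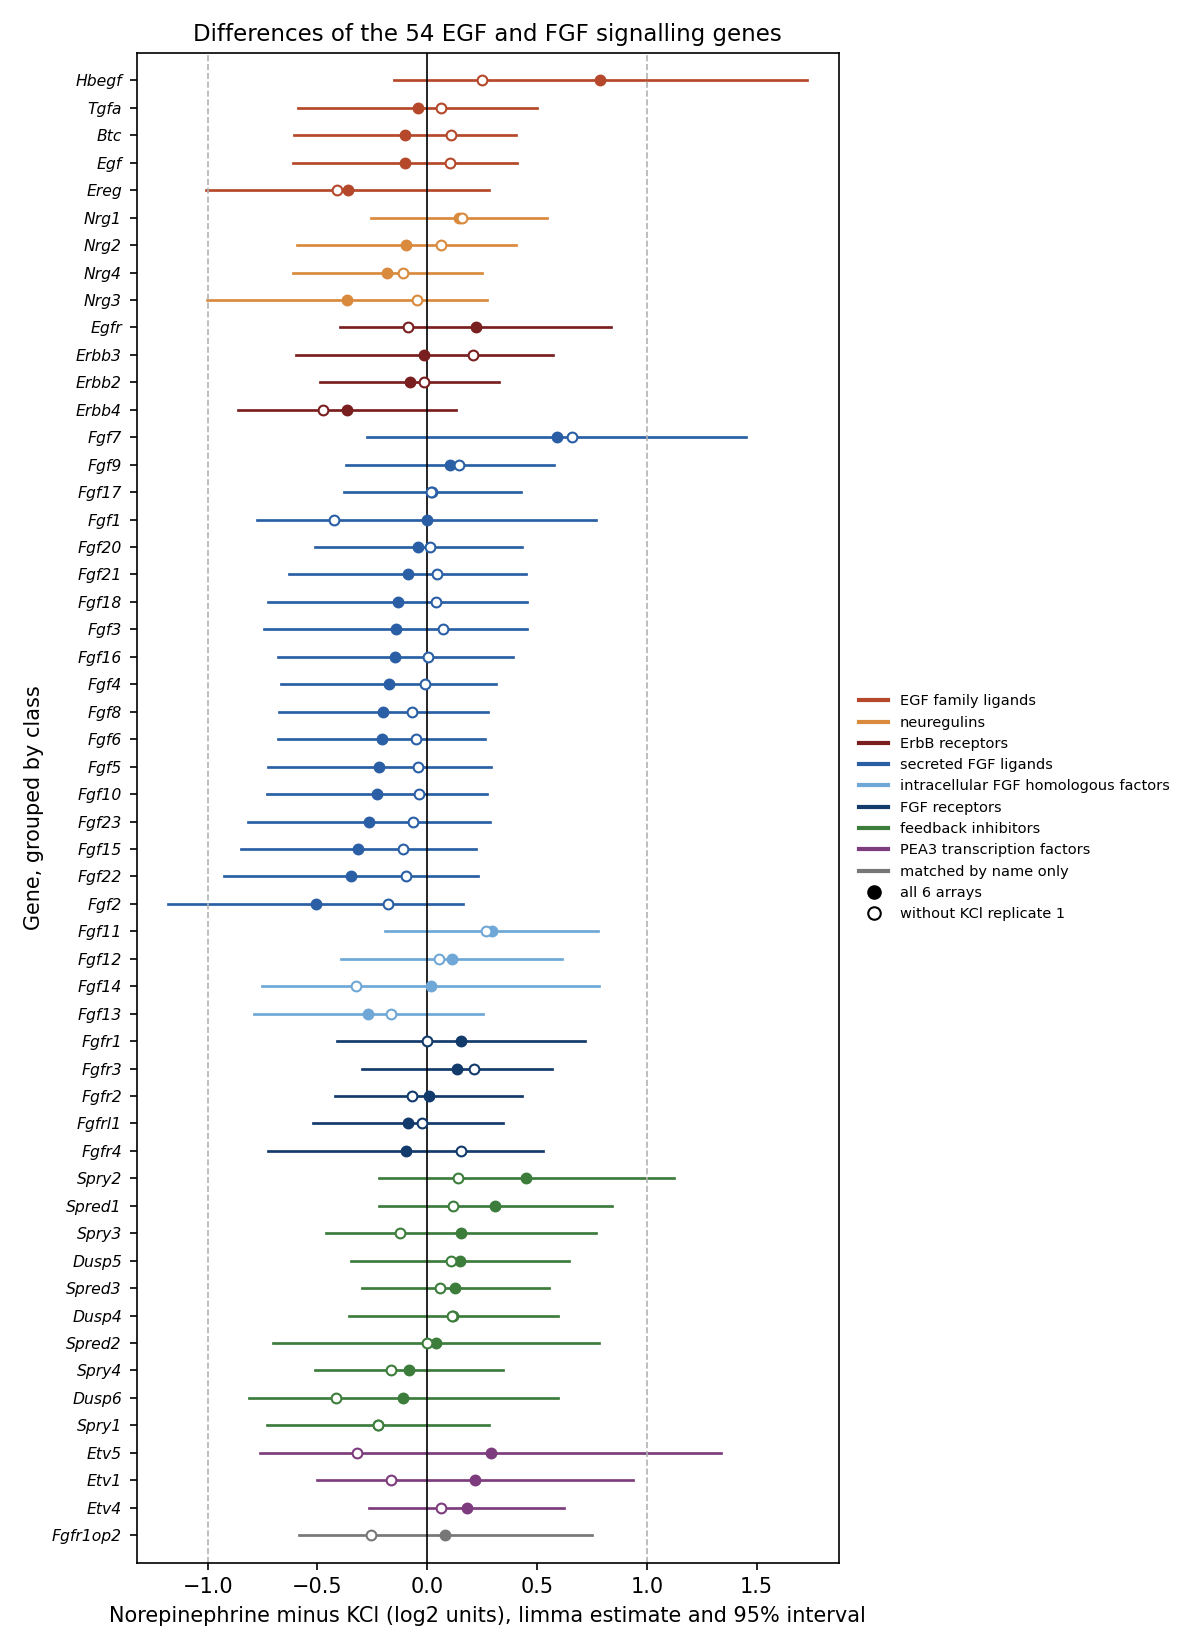
The difference between norepinephrine and KCl (horizontal axis, log2 units) for each of the 54 genes, by class, as the limma estimate on 6 arrays (filled circle) with its unadjusted 95% interval (line) and the estimate without KCl replicate 1 (open circle); dashed lines mark a 2-fold difference. Every interval includes 0, 47 of 54 lie inside the dashed lines, and the open circles of Hbegf, Fgf1, Fgf2, Etv5 and Etv1 lie far from the filled ones.

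The rest of the pathway was read from 4 lists, of which no gene passed the adjusted threshold by limma. Of 15 measured adaptors and RAS regulators, the difference was above 0 in 8, the median was 0.01, and 0 had an unadjusted p under 0.05. The list from RAS to RSK held 16 genes, of which 9 had a probe set with a single symbol and the rest were not analysed here. The difference was above 0 in 6 of these 9, the median was 0.12, and 1 was under an unadjusted p of 0.05. Of 27 receptor-level modulators 10 were higher with norepinephrine (median -0.07), and of 23 genes induced by or acting beside ERK 13 were (median 0.01), with 1 gene in each under that p. By this p 2.18% of all genes were higher with norepinephrine and 0.998% higher with KCl. Without KCl replicate 1 the difference was above 0 in 4 of the 15 adaptors and regulators (median -0.08) and in 6 of the 9 genes from RAS to RSK (0.07). It was then above 0 in 12 of the 27 modulators (-0.04) and in 13 of the 23 ERK-linked genes (0.02). Groups that did not overlap were found in 0 of 15, 3 of 9, 3 of 27 and 3 of 23 genes of these lists, against 9.03% of all genes.

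The 3 genes under an unadjusted p of 0.05 were among these 9. The others were Rras, Araf, Sulf1, Flrt2, Ier3 and Ets2, all higher with norepinephrine. Mras, a RAS relative that takes part in activating RAF, read 9.48, 9.12 and 9.33 with norepinephrine and 8.13, 8.37 and 8.80 with KCl. Its difference was 0.87 ± 0.23, and 0.72 without KCl replicate 1 (unadjusted p = 0.0041 on 6 arrays, adjusted p = 0.939 by limma). Sdc2, a heparan sulfate proteoglycan of the kind that binds FGFs, stood at 0.80 ± 0.34, and 0.37 without KCl replicate 1. Ets1, a transcription factor that ERK phosphorylates, was lower with norepinephrine, at 7.27, 7.08 and 7.20 against 7.70, 7.65 and 7.63. Its difference was -0.48 ± 0.17, and -0.46 without KCl replicate 1 (unadjusted p = 0.0233 on 6 arrays, adjusted p = 0.939 by limma).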

How the data were processed

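TRIzol-extracted total RNA was made into labelled cDNA (NuGEN Applause WT-Amp ST), per the labels' protocols. The authors deposited 1 log2 value for each probe set and array, made with Partek and RMA, per the submitters' processing notes. Software versions and settings are not stated in these sources. Of 34760 probe sets, 21640 carried 1 gene symbol in the platform annotation, 1321 several and 11799 none, and 21553 matched RefSeq (GRCm38.p6) by Entrez identifier, with 0 symbols changed. limma 3.58.1 in R 4.3.3 (lmFit, eBayes, no covariate) was fitted to the 21640 probe sets. The test was two-sided, p-values were adjusted by Benjamini-Hochberg over all of them, and the fit was tested on simulated data. Intervals and standard errors are limma's. The number of arrays, 3 per group, limits the precision. No probe set was left out as dim.

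The genes, classes and lists were chosen with earlier results of these data known. Named were all receptors, inhibitors and PEA3 factors, and ligands above the median gene level, without overlap or under an unadjusted p of 0.05. Of the 4 pathway lists, genes under that p were to be named. Rras, Araf, Sulf1, Flrt2, Ier3 and Ets2 were not under it and are named, outside that plan, for groups without overlap. Values on every array were to be given for Egfr, Fgfr1 to Fgfr3 and genes without overlap or under that p; those shown for further genes were chosen after their values were seen. Promoter motifs, planned only if members moved together, were not searched. Gene-by-gene array weights, and quantile normalization without KCl replicate 1, were alternatives added after the data were seen.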

Additional observations from a re-analysis of the deposited data

How the results depend on the processing

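Of the 54 genes, 0 passed the adjusted threshold by limma after a further quantile normalization, median centring, either filter on dim probe sets, trend and robust moderation, the replicate block, means over probe sets, a fit on all probe sets, quantile normalization without KCl replicate 1, and on leaving out any array. The exception was array weighting: limma's default weights did not converge and put a weight of 673 on KCl replicate 3, with 9 genes passing (26.2% of all probe sets did) and 20 at an unadjusted p under 0.05 (40.1%), and Spred2 at -0.41 and Etv5 at -0.53, the opposite sign to the unweighted values. The gene-by-gene weights, which gave that array 6.76, had 1 gene passing (Ereg, at -0.89; 6.72% of all probe sets passed) and 6 at an unadjusted p under 0.05 (23.9%). Under the default and the gene-by-gene weights the FGF receptor median was -0.128 and -0.125, that of the feedback inhibitors -0.04 and -0.05 (3 and 4 of 10 higher) and that of the PEA3 factors -0.24 and -0.22. At an unadjusted p under 0.05, 1 gene was found after quantile normalization (Erbb4; 4.6% of all probe sets), 1 with the replicate block (Hbegf; 6.64%) and 2 after quantile normalization without KCl replicate 1 (6.16%). On leaving out 1 array the count ran from 0 to 4, the latter without KCl replicate 2 (Fgf22, Hbegf, Fgf2 and Ereg), where 16.3% of all probe sets were under that p. Groups without overlap numbered 3 after quantile normalization (11.2% of all probe sets), 3 after median centring (10.3%), 0 without probe sets under the median (10.8%) and 10 after quantile normalization without KCl replicate 1 (20.6%). On leaving out 1 array they numbered 1 to 21, the latter without KCl replicate 2, where 42.2% of all probe sets did not overlap. The median over the 54 genes, -0.06, ran from -0.16 to -0.01 on leaving out 1 array. In the same way the ErbB receptor median ran from -0.17 to 0.00036, that of the FGF homologous factors from -0.055 to 0.22 and that of the neuregulins from -0.28 to 0.0093. The neuregulin median was 0.025 with probe sets under the 30th percentile left out, and that of the EGF family ligands 0.37 with those under the median left out, as fewer genes were then tested. Signs changed in 6 of the 54 after quantile normalization, 2 after median centring, 15 under each weighting, 18 after quantile normalization without KCl replicate 1 and 2 to 19 on leaving out 1 array, the latter KCl replicate 1.

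The labels do not say what equal replicate numbers share. The deviations from the group means correlated at 0.30, 0.63 and 0.085 between equal numbers, and norepinephrine replicate 3 correlated best with KCl replicate 1 (0.31). The replicate block raised the count at an unadjusted p under 0.05 over all probe sets from 743 to 1436. Signal over background could not be assessed from these values, so a dim probe set may carry little information on its gene.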

Other observations

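The arrays of replicate 2 gave many of the lowest readings of the 54 genes, as they did over all genes. Norepinephrine replicate 2 was the lowest array in 16 (29.6%, against 20.2% of all genes). KCl replicate 2 was lowest in 18 (33.3%, against 32.8%), and KCl replicate 1 in 15 (27.8%, against 24.7%). Among the 24 genes at or under the median gene level these counts were 11, 10 and 1. Over all genes at or under that level, norepinephrine replicate 2 was lowest in 30% and KCl replicate 2 in 45.6%.

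Some readings of single genes stood far from the rest of their group. Fgf7 on norepinephrine replicate 1 (7.28) was 1.28 log2 units above the next array, Ereg on KCl replicate 3 (6.52) was 0.68 above the next, and Nrg3 on KCl replicate 1 (6.79) was 0.93 above the next. With groups of 3 samples, none of these was tested as an outlier.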
